A study of Mus musculus with 12 samples.

Results

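The transcriptome of mandibular fibrochondrocytes that lack NG2, the transmembrane proteoglycan encoded by Cspg4, was compared with that of wild-type cells in the libraries whose titles carry the word Norm. Libraries were chosen by title alone: 3 of NG2 knockout cells and 3 of wild-type cells, which make 6 of the 12 libraries of the series. The other 6 are titled Opti and hold 3 libraries of each genotype. All 12 were made from primary cells of the mandibular condylar cartilage, the fibrocartilage that caps the jaw joint, taken from pups 10 to 14 days old, freed with collagenase and plated. Labels place the RNA at passage 4, whereas the methods of the study speak of cells used before the third passage. The knockout mice carried a reporter-tagged deletion allele bred from Cspg4tm1a(KOMP)Wtsi and backcrossed to C57BL/6J, so that the deletion was present in every cell of the animal. The wild-type mice were C57BL/6J. No label says whether the 3 libraries of a group came from separate animals, litters or dishes, so the p-values below measure the spread between libraries, which may be technical in part.

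Norm stands for AMEM medium with heat-inactivated fetal bovine serum, and Opti for serum-free Opti-MEM. Title and treatment entry agree on the medium of every wild-type library. They disagree for all 6 knockout libraries: the knockout libraries titled Norm are entered as serum-free, and those titled Opti as grown in AMEM. The grouping here follows the titles, so every difference below between the Norm knockout and the Norm wild type is one of genotype only if the titles are right. If the treatment entries are right, it is a difference of genotype and medium together, which cannot be told apart from these 6 libraries. Levels in the Opti libraries are therefore given beside the genes for which this matters most. Unless Opti is named, "knockout" and "wild type" below mean the Norm libraries.

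NG2 is a large surface protein of pericytes, glial progenitors and immature mesenchyme that can bear a glycosaminoglycan chain. It binds collagen VI in the pericellular matrix, holds growth factors such as FGF2 and PDGF-AA near their receptors, and meets galectin-3 and integrins at the cell surface. The condylar cartilage in which these cells lie is a secondary cartilage, covered by a fibrous layer rich in collagen I and fed by prechondroblastic cells that can become cartilage or bone. The study asked what part NG2 plays in the migration of such cells, in ordinary and in stressful conditions.

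Libraries held between 65749207 and 69470572 counted reads in the knockout and between 51546504 and 70094901 in the wild type. Levels are given as CPM, counts scaled to a common library size by TMM, and differences as the log2 fold change of the knockout over the wild type with its standard error, from edgeR's quasi-likelihood test with Benjamini-Hochberg adjustment over the 19118 genes tested; a gene was called at an adjusted p below 0.05. Some facts of the libraries differ between the Norm groups. The summed level of 4 Y-linked genes was 113 to 129 CPM in the knockout, against 37.5 to 66.1 CPM in the wild type, and Xist was at 33.3 to 58.7 CPM in the knockout, against 154 to 210 CPM in the wild type. Neither range overlapped between the groups. In Opti the Y-linked sum was 73.5 to 82.1 CPM in the knockout and 52.1 to 58.8 CPM in the wild type, but Xist overlapped there, at 217 to 450 CPM in the knockout and 166 to 306 CPM in the wild type, so that Xist does not follow genotype in both media. Wdfy1, a gene whose level is known to differ between C57BL/6 substrains, was 104, 94.4 and 85.4 CPM in the knockout, against 18.2, 18.7 and 15.3 CPM in the wild type (2.44 ± 0.12 (adjusted p = 3.16e-08)), a difference also present in Opti (2.31). Neither the sex of the donors nor the substrain can be told apart from genotype. Wild-type replicate 2 held the most endothelial RNA. The summed level of 12 endothelial markers, of which 11 were tested, was 70.8 CPM there. It was 6.57 and 13.5 CPM in the other wild-type libraries and 4.90 to 6.55 CPM in the knockout. Summed epithelial markers were 2.41 to 19.1 CPM in the knockout, and 173, 170 and 3.99 CPM in the wild type.

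Of the 19118 genes, 6896 (36.1%) were called, 3615 (18.9%) higher and 3281 (17.2%) lower in the knockout. Values of the 2 groups did not overlap for 8656 genes (45.3%). At 2-fold or more the balance was different, with 753 genes higher and 1857 lower (473 higher and 292 lower with limma on log2(FPKM + 1), which turns the balance, and 995 higher and 1021 lower with log2(FPKM + 0.1)), while the median log2 fold change over all genes was −0.04. The share of calls that were higher was 52.4%, but 69.3% when the deposited FPKM values were tested with limma on the log2(FPKM + 1) scale. These shares are the background for every list below. With the summed Y-linked level as a covariate, 919 genes were called, and the counts over the lists below changed unequally. That level did not overlap between the genotypes in either medium, so the fit can hardly separate it from genotype. A call lost or kept under it therefore does not show whether a result depends on the sex of the donors. Then 30 of 39 amino acid stress genes were still higher, and 7 of 17 small leucine-rich proteoglycans and 10 of 33 cartilage genes lower. But 6 of 33 lysosomal and 0 of 39 interferon genes were higher, and 0 of 36 replication and 0 of 34 mitotic genes lower. Members lower fell to 3 fibrillar collagen genes (20 without the covariate), 1 collagen VI and basement membrane (8) and 3 tendon genes (11). They also fell to 1 actin and SRF (13), 3 integrin and adhesion (12) and 8 matrix protease genes (28). Members higher fell to 3 jaw patterning (21) and 2 ribosome biogenesis genes (13). More of the lower members were kept for mesenchymal complement (8, from 12), elastic fibre (5, from 10) and bone genes (6, from 13).

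With the medium from the treatment entry, several of the counts given below by title also moved. Members lower were then 18 of 24 collagen VI and basement membrane genes (8 by title), 21 of 44 integrin and adhesion genes (12), 16 of 28 glycolysis and hypoxia genes (9) and 10 of 21 p53 targets (5). Members higher were 6 of 25 ribosome biogenesis genes (13 by title), 4 glycolysis and hypoxia genes (9), 11 of 75 motility genes (18), 14 of 47 Wnt genes (7) and 3 of 33 NG2 ligands and partners (7).

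**Figure D1:**
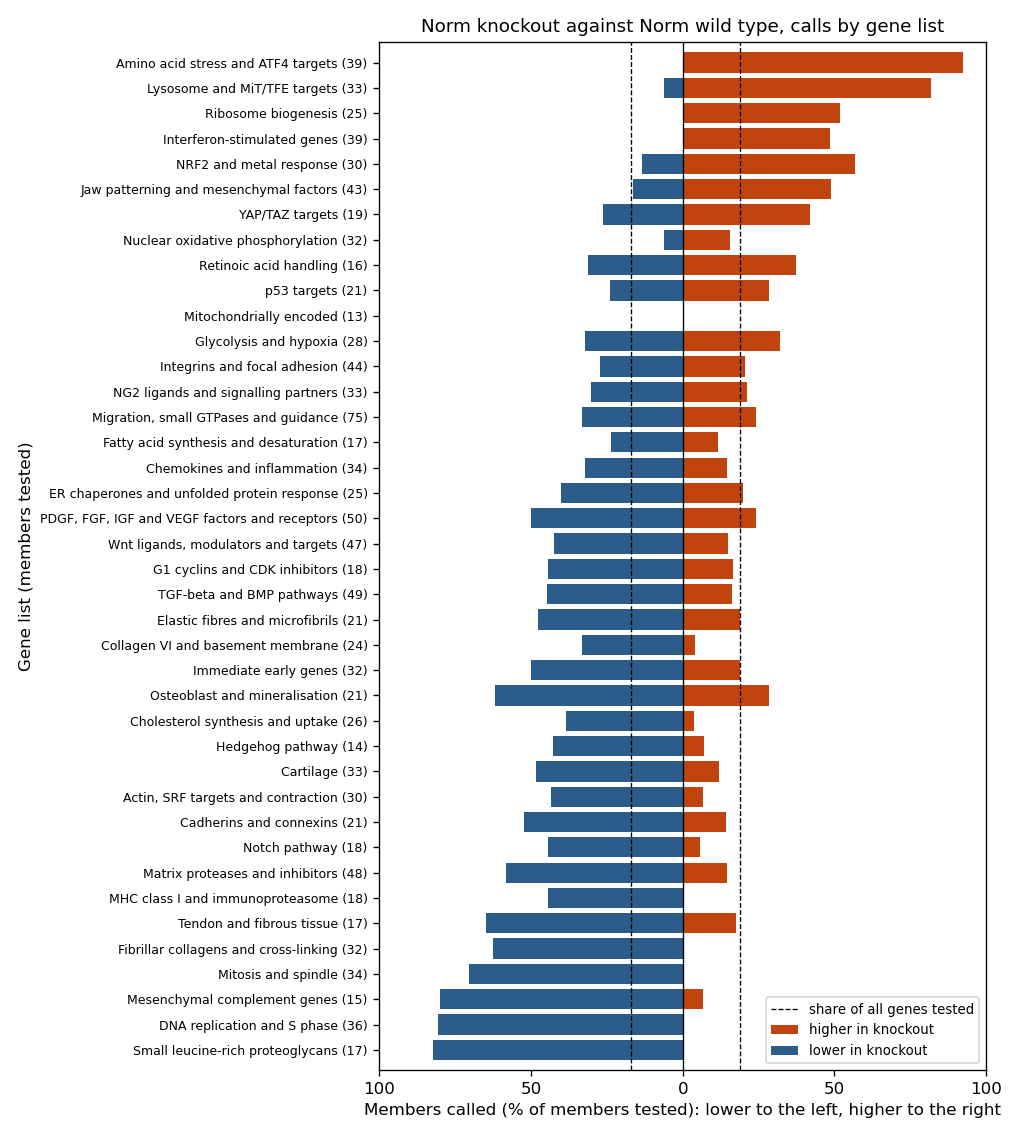
Share of the tested members of each of 40 gene lists that were called higher (right) or lower (left) in the Norm knockout than in the Norm wild type, with the number tested in brackets and dashed lines at the shares of all genes, 18.9% and 17.2%. Amino acid stress and lysosomal genes reach furthest to the right, with 36 of 39 and 27 of 33 higher, and small leucine-rich proteoglycans and replication genes furthest to the left, with 14 of 17 and 29 of 36 lower.

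Cspg4 (ENSMUSG00000032911, chr9:56865033-56899870, plus strand, GRCm38 by identifier) was 16.6, 10.8 and 11.7 CPM in the knockout, against 176, 216 and 201 CPM in the wild type. All 3 knockout libraries lay far below all 3 wild-type libraries, and the log2 fold change was −3.92 ± 0.18 (adjusted p = 2.52e-08). An exact two-sided permutation test of the 6 values gave p = 0.1, the smallest that 3 against 3 libraries allow. The Opti libraries gave the same picture, 12.4, 10.5 and 12.97 CPM in the Opti knockout and 147, 158 and 114 CPM in the Opti wild type, so that Cspg4 was low in every library labelled knockout. Of the 40 other genes tested within 1 Mb of Cspg4, 5 were higher and 5 lower, which is 25% in all against the background of 36.1%.

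Among the 33 tested genes for ligands and partners of NG2, 7 rose and 10 fell (median log2 fold change −0.0032, against −0.04 over all genes), and 4 rose without wild-type replicate 3. The collagen VI chains, the chief matrix ligand, fell together: Col6a1 was 2596, 1882 and 2283 CPM in the knockout, against 4440.1, 4501 and 4538 CPM in the wild type, and Col6a2 2438, 1948 and 2292 CPM in the knockout, against 4307, 4517 and 4597 CPM in the wild type. The groups did not overlap for either chain, with log2 fold changes of −0.996 ± 0.14 (adjusted p = 1.87e-04) and −1.01 ± 0.13 (adjusted p = 9.55e-05). The third chain of the trimer, Col6a3, averaged 1627 CPM in the knockout and 2495 CPM in the wild type, and its change did not pass the test (−0.62 ± 0.24 (adjusted p = 0.0576)). Lgals3, which encodes galectin-3, moved the other way, at 537, 772 and 734 CPM in the knockout, against 122, 128 and 93.98 CPM in the wild type (2.57 ± 0.16 (adjusted p = 2.32e-07)). Plat, tissue plasminogen activator, was 40.4, 37.9 and 42.4 CPM in the knockout, against 114, 133 and 121 CPM in the wild type (−1.61 ± 0.11 (adjusted p = 2.94e-07)). Fgf2 and the PDGF ligand Pdgfa also fell, with log2 fold changes of −1.004 ± 0.13 and −0.69 ± 0.17. The PDGF receptors split: Pdgfra, the receptor that marks mesenchymal progenitors, fell by 0.89 on the log2 scale, with 44.7 CPM in the knockout and 83.1 CPM in the wild type, whereas Pdgfrb rose, with 603 CPM in the knockout and 297 CPM in the wild type (1.02 ± 0.14 (adjusted p = 1.54e-04)).

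**Figure D2:**
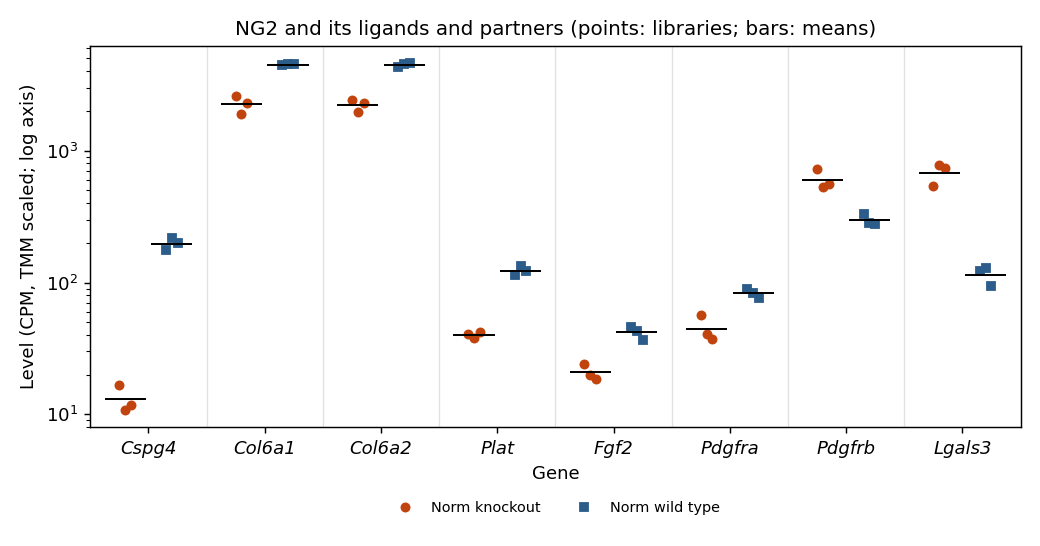
Level in CPM (log axis) of Cspg4 and 7 genes for its ligands and partners in each Norm library, knockout (circles, left) and wild type (squares, right), with a bar at each group mean, 3 libraries a group. Cspg4, both collagen VI chains, Plat, Fgf2 and Pdgfra lie lower in every knockout library than in any wild-type library, and Lgals3 and Pdgfrb higher.

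Genes of the amino acid response had the highest share of members that changed in 1 direction. ATF4 is a transcription factor whose protein is made when amino acids are short or translation initiation is restrained, and it switches on amino acid transporters, serine and asparagine synthesis, tRNA synthetases and the genes that end the response. Of 39 such genes tested, 36 rose and 0 fell in the knockout, with a median log2 fold change of 1.87. Trib3, a pseudokinase that feeds back on ATF4, was 188, 194 and 208 CPM in the knockout, against 6.13, 15.2 and 3.99 CPM in the wild type (4.53 ± 0.37 (adjusted p = 1.73e-06)). Each knockout library exceeded every wild-type library by more than 10 times. Chac1, a glutathione-degrading enzyme, was 102, 107 and 114 CPM in the knockout, against 8.63, 14.05 and 8.20 CPM in the wild type (3.39 ± 0.18 (adjusted p = 5.55e-08)). Ddit3, which encodes CHOP, was 157, 168 and 171 CPM in the knockout, against 18.1, 25.5 and 15.3 CPM in the wild type (3.07 ± 0.17 (adjusted p = 7.55e-08)). Again no knockout library came near the wild-type range.

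The other arms of the response rose too. Among amino acid transporters, Slc6a9 for glycine was 177, 169.9 and 172 CPM in the knockout, against 18.5, 24.6 and 23.4 CPM in the wild type (2.96 ± 0.11 (adjusted p = 5.81e-09)), Slc7a3 for cationic amino acids averaged 56.4 CPM in the knockout and 4.53 CPM in the wild type (3.64 ± 0.16), and Slc7a11, the cystine importer, averaged 19.2 CPM in the knockout and 3.64 CPM in the wild type (2.41 ± 0.35). Synthesis genes followed: Asns, asparagine synthetase, was 284, 354 and 349.7 CPM in the knockout, against 68.5, 76.8 and 64.7 CPM in the wild type (2.23 ± 0.11 (adjusted p = 4.15e-08)). Phgdh, the first enzyme of serine synthesis, averaged 369.5 CPM in the knockout and 76.9 CPM in the wild type (2.26 ± 0.11), Shmt2 of the mitochondrial folate cycle 245 CPM in the knockout and 60.2 CPM in the wild type (2.02 ± 0.09), and Cth, cystathionine gamma-lyase, 56.4 CPM in the knockout and 4.96 CPM in the wild type (3.51 ± 0.16). The synthetases Sars and Nars rose by 1.86 and 1.87 on the log2 scale. Ppp1r15a, the phosphatase subunit that restores translation, averaged 138 CPM in the knockout and 30.3 CPM in the wild type (2.19 ± 0.09). Atf4 itself rose less, with 425 CPM in the knockout and 188 CPM in the wild type (1.17 ± 0.11).

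The C/EBP-ATF composite element through which ATF4 acts is known, and it was looked for around the transcription start. The letters TGATGNAA, searched on both strands from 250 bases before to 50 after the start (RefSeq, GRCm38.p6), occurred in 11 of the 32 members with a window, and in 28.9% of their 38 promoters, against 3.97% of 32851 promoters of all genes. The match describes the window and does not show binding. The list holds known ATF4 targets, so a high share follows from the choice of list and says nothing about the knockout. The same limit holds for the motif searches below. Pycr1 and Vldlr hold the element and were not called. Shown here are the stretches of 5 members that changed, 5′ to 3′ on the gene's strand with the element in capitals: Trib3 at chr2:152344011-152344076 (minus strand), Chac1 at chr2:119351019-119351086 (plus), Asns at chr6:7693195-7693262 (minus), Slc7a11 at chr3:50443623-50443709 (minus), which has 2 elements, and Nupr1 at chr7:126625543-126625610 (minus).
Trib3: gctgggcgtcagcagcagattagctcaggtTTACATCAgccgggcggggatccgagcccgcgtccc
Chac1: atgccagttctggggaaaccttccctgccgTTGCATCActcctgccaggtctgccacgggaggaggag
Asns: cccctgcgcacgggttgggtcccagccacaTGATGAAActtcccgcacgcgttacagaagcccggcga
Slc7a11: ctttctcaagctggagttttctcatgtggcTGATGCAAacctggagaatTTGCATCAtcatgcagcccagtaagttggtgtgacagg
Nupr1: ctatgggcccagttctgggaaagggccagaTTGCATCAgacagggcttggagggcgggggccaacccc
Nupr1, a small stress-induced chromatin protein, was 171, 219 and 194 CPM in the knockout, against 66.2, 93.8 and 78.9 CPM in the wild type (1.29 ± 0.14 (adjusted p = 2.03e-05)).

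In the Opti libraries the list behaved differently. Only 4 of the 39 genes were higher and 10 were lower in the Opti knockout than in the Opti wild type, and the difference between the media passed the interaction test for 38 of 39, against a background of 31.4%. Levels show where the contrast arises. Trib3 was 155, 190.1 and 170.5 CPM in the Opti knockout and 264, 299.7 and 306 CPM in the Opti wild type, close to the Norm knockout and far above the Norm wild type. Asns was 197, 213 and 208 CPM in the Opti knockout and 212, 229 and 249 CPM in the Opti wild type. For these genes the Norm wild type was thus the group that stood apart, with the other 9 libraries within 2-fold of each other for Asns. With the medium of the knockout libraries taken from the treatment entry, that is with the libraries titled Opti set against the Norm wild type, 38 of the 39 genes were higher.

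Lysosomal genes rose almost as widely. TFEB, TFE3 and MITF (MiT/TFE) drive genes for the lysosomal proton pump, hydrolases, autophagy receptors and the nutrient sensing folliculin complex, and 27 of 33 such genes tested were higher and 2 lower (median 0.79). Sqstm1, the autophagy receptor p62, was 1442, 1541 and 1499.7 CPM in the knockout, against 315, 358 and 325 CPM in the wild type (2.17 ± 0.11 (adjusted p = 4.33e-08)). Flcn and its partner Fnip2, of the folliculin complex, rose by 1.24 ± 0.08 and 1.86 ± 0.17 on the log2 scale. The proton pump subunit Atp6v1b2 averaged 195 CPM in the knockout and 73.8 CPM in the wild type (1.40 ± 0.09), and Gla, alpha-galactosidase A, was 31.4, 42.5 and 32.8 CPM in the knockout, against 11.3, 13.6 and 9.08 CPM in the wild type (1.65 ± 0.16 (adjusted p = 5.85e-06)). Gpnmb, a lysosomal membrane glycoprotein also made by macrophages and osteoclasts, was 667, 689 and 629 CPM in the knockout, against 213, 229 and 211 CPM in the wild type (1.60 ± 0.11 (adjusted p = 3.59e-07)). In none of these did the groups overlap. Tfeb mRNA itself averaged 6.79 CPM in the knockout and 6.72 CPM in the wild type (0.01 ± 0.12 (adjusted p = 0.942)).

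The motif of this family was looked for after the values were seen. The letters TCACGTGA (both strands, palindromic) occurred in 6 of the 25 members with a window, in 19.4% of their 31 promoters against 0.974% of all 32851. The stretches of Gla at chrX:134601163-134601255 (minus strand) and Ctsa, the protective protein cathepsin A, at chr2:164833730-164833814 (plus) hold it 2 times each, that of Mcoln1, a lysosomal calcium channel, at chr8:3500443-3500510 (plus) once.
Gla: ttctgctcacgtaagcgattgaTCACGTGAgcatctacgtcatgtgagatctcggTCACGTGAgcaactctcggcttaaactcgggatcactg
Ctsa: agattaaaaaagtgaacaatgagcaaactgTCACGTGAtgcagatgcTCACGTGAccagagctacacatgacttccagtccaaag
Mcoln1: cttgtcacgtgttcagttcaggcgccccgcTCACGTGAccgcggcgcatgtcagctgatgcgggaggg
Mcoln1 was 70.9, 81.2 and 73.6 CPM in the knockout, against 39.6, 38.4 and 42.7 CPM in the wild type (0.90 ± 0.10 (adjusted p = 2.80e-05)), and Ctsa averaged 487 CPM in the knockout and 355 CPM in the wild type (0.46 ± 0.09 (adjusted p = 0.00121)). In Opti the direction of the list was the opposite, with 0 members higher and 23 lower, and 30 of 33 interactions passed. Macrophage and myeloid markers moved with this: 17 of 19 were lower in Opti (median −2.002), with 13 positive interactions, and none was at 0 throughout a group. Their summed level was 228 to 259 CPM in the Opti knockout and 744 to 1304 CPM in the Opti wild type. Of 7 osteoclast markers, which include Atp6v0d2, 4 were lower there, and their part in the Opti values of lysosomal and oxidative genes was not tested. Sqstm1 was 833, 1074 and 913 CPM in the Opti knockout and 1498, 1554 and 1629 CPM in the Opti wild type, and Gpnmb 441, 590.0 and 497 CPM in the Opti knockout and 1275, 1292 and 1232 CPM in the Opti wild type.

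Genes of oxidative and metal stress also leaned upward. NRF2 is freed from its inhibitor by electrophiles and by p62, and it induces glutathione and quinone enzymes, while metallothioneins answer to zinc. In this list 17 of 30 were higher and 4 lower (median 0.45). Hmox1, heme oxygenase, was 906, 1094 and 998 CPM in the knockout, against 186, 239 and 203 CPM in the wild type (2.25 ± 0.13 (adjusted p = 9.80e-08)). The iron exporter Slc40a1 and the ferritin light chain Ftl1 rose by 1.88 and 1.18 on the log2 scale, and the metallothionein Mt2 by 1.75. Gclm of glutathione synthesis rose by 1.05, with 52.03 CPM in the knockout and 25.1 CPM in the wild type. Gstm2, a glutathione transferase, and Gpx3, the secreted glutathione peroxidase, fell, by 0.98 and 0.94. Hmox1 had the opposite difference in Opti, 542, 609 and 534 CPM in the Opti knockout and 1426, 1666 and 1761 CPM in the Opti wild type, with an interaction of 3.78 ± 0.18 (adjusted p = 7.50e-08).

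**Figure D3:**
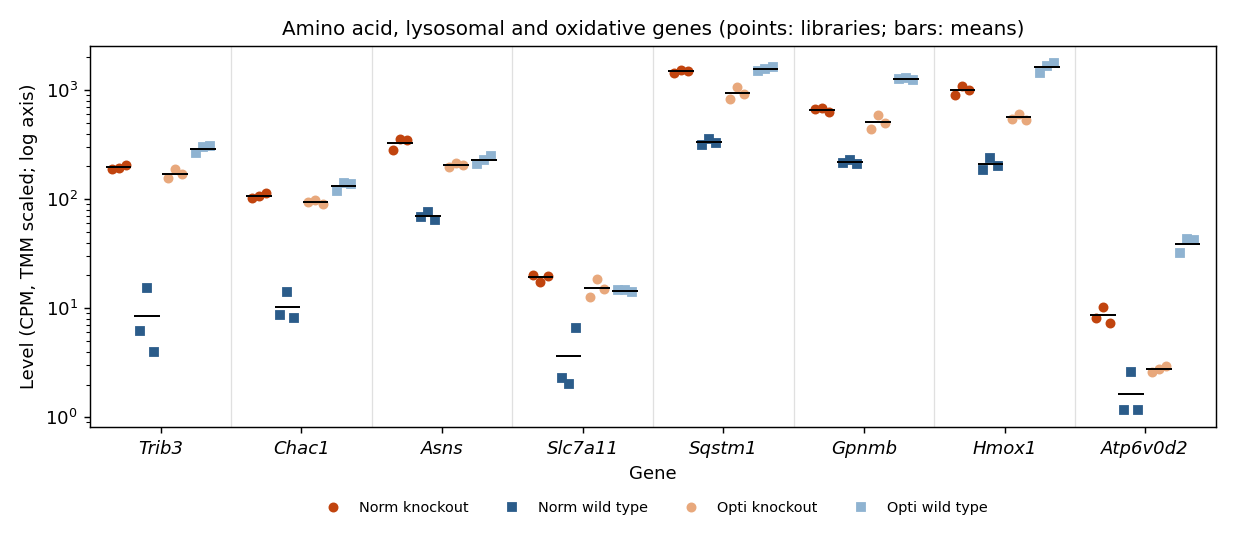
Level in CPM (log axis) of 8 genes of the amino acid, lysosomal and oxidative responses in each library of the 4 groups, in the order Norm knockout, Norm wild type, Opti knockout and Opti wild type, with a bar at each mean, 3 libraries a group. Trib3, Chac1, Asns and Slc7a11 are low in the Norm wild type alone, and Sqstm1, Gpnmb, Hmox1 and Atp6v0d2 have their highest mean in the Opti wild type.

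Interferon-stimulated genes, which cells switch on through a complex that holds IRF9, showed 19 of 39 higher and 0 lower (median 0.60). Irf9, the DNA-binding part of the complex, was 40.2, 50.2 and 36.1 CPM in the knockout, against 19.6, 19.4 and 16.6 CPM in the wild type (1.18 ± 0.12 (adjusted p = 1.02e-05)). Ifi44 averaged 41.3 CPM in the knockout and 7.35 CPM in the wild type (2.48 ± 0.25) and Xaf1 19.003 CPM in the knockout and 8.78 CPM in the wild type (1.11 ± 0.16). The spread among knockout libraries was wide for the induced effectors: Ifit1, which binds foreign RNA, was 25.2, 53.1 and 12.4 CPM in the knockout, against 7.46, 9.23 and 5.87 CPM in the wild type (2.01 ± 0.39 (adjusted p = 0.00158)), and Isg15, a ubiquitin-like modifier, 11.7, 23.97 and 6.61 CPM in the knockout, against 4.85, 6.12 and 5.004 CPM in the wild type (1.40 ± 0.34 (adjusted p = 0.00695)). Knockout replicate 2 was the highest in both genes and replicate 3 the nearest to the wild type. Leaving out single libraries left 12 to 20 members higher, with 12 both without knockout replicate 2 and without wild-type replicate 3. In Opti no member was higher and 29 were lower, and with the treatment entry as the medium 5 were higher and 7 lower, so this result turns on the medium of the knockout libraries.

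The interferon element, written TTTC, any 2 bases and TTTC on either strand, with overlaps counted, occurred in 17 of 28 members with a window, in 48.6% of 35 promoters against 3.44% of all. This share is over all members with a window, called or not. Gbp2, Oas3 and Rsad2 hold the element and were not called, while Isg15 and Ifit1, shown here, were. Isg15 at chr4:156200845-156200926 (minus strand) holds 3 overlapping copies, and Ifit1 at chr19:34640755-34640843 (plus) has 2.
Isg15: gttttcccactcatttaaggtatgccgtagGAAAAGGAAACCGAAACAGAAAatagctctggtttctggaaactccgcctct
Ifit1: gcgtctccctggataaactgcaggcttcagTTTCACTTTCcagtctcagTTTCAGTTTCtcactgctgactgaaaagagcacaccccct
MHC class I genes and the immunoproteasome, which answer to the same pathway, did not share the rise: 0 of 18 were higher and 8 lower. Tapbp, tapasin, averaged 175 CPM in the knockout and 271 CPM in the wild type (−0.63 ± 0.10 (adjusted p = 2.92e-04)), and H2-K1, a classical class I chain, fell by 0.43 on the log2 scale. H2-K1 lost its call with limma on FPKM.

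Genes of the extracellular matrix fell widely, though in fewer members once the Y-linked level was a covariate. Small leucine-rich proteoglycans, which coat collagen fibrils and set their diameter, were lower in 14 of 17 members and higher in 0, with a median of −1.61. Lum, lumican, was 476, 626 and 597 CPM in the knockout, against 3389, 4470.2 and 3411 CPM in the wild type (−2.73 ± 0.16 (adjusted p = 1.14e-07)). Prelp was 352, 322 and 375 CPM in the knockout, against 1898, 1679 and 1804 CPM in the wild type (−2.36 ± 0.14 (adjusted p = 1.51e-07)), and Dcn, decorin, 639, 733 and 761 CPM in the knockout, against 1946, 2419 and 1965 CPM in the wild type (−1.57 ± 0.13 (adjusted p = 1.52e-06)). For these 3 genes no knockout library reached the wild-type range. Ogn, Omd and Aspn fell by 1.56, 1.89 and 1.54 on the log2 scale, and Fmod, fibromodulin, by 0.87. Bgn, biglycan, a close relative of decorin, did not pass, at 5614, 5281 and 5442 CPM in the knockout, against 5533, 5194 and 5456 CPM in the wild type (0.01 ± 0.11 (adjusted p = 0.94)). Lum was lower in the Opti knockout as well (−2.37), and its interaction did not pass (−0.35 ± 0.21 (adjusted p = 0.225)), whereas Prelp differed little in Opti (−0.26; interaction −2.10 ± 0.20 (adjusted p = 8.02e-06)).

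Fibrillar collagens and their modifying enzymes fell in 20 of 32 members and rose in 0 (median −0.54). Col1a1 averaged 41531 CPM in the knockout and 76878 CPM in the wild type (−0.89 ± 0.16 (adjusted p = 8.25e-04)), Col1a2 24632 CPM in the knockout and 47693 CPM in the wild type (−0.95 ± 0.16) and Col3a1 6975 CPM in the knockout and 13853 CPM in the wild type (−0.99 ± 0.16). Limma on FPKM left 14 of the 32 members lower, and Col1a1 lost its call. Tnc, tenascin-C, a matrix protein of healing and loaded tissue, was 1357, 762 and 1051 CPM in the knockout, against 3107, 3479 and 2956 CPM in the wild type (−1.59 ± 0.20 (adjusted p = 7.00e-05)). The prolyl hydroxylase subunits P4ha3 and P4ha2 fell by 1.04 and 0.74 on the log2 scale, and Bmp1, the procollagen C-proteinase, by 0.77. Among 24 collagen VI and basement membrane genes 8 fell and 1 rose: Lama1, the laminin alpha 1 chain, was 37.4, 16.6 and 20.6 CPM in the knockout, against 1.01, 1.48 and 0.992 CPM in the wild type (4.41 ± 0.30 (adjusted p = 3.96e-07)). Col15a1, which bridges basement membrane and fibrils, averaged 3.44 CPM in the knockout and 20.1 CPM in the wild type (−2.55 ± 0.21).

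Elastic fibre genes and thrombospondins were mixed, with 4 of 21 higher and 10 lower. Eln, elastin, was 1.44, 1.56 and 1.09 CPM in the knockout, against 15.4, 28.5 and 17.1 CPM in the wild type (−3.90 ± 0.24 (adjusted p = 1.42e-07)). Mfap2 and Emilin1 of the microfibrils fell by 2.38 and 1.44 on the log2 scale. Thbs4 rose, with 187 CPM in the knockout and 42.6 CPM in the wild type (2.14 ± 0.13), and so did Fbln2, fibulin-2 (1.29 ± 0.22), while Thbs1 and Thbs2 fell by 0.94 and 1.31.

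**Figure D4:**
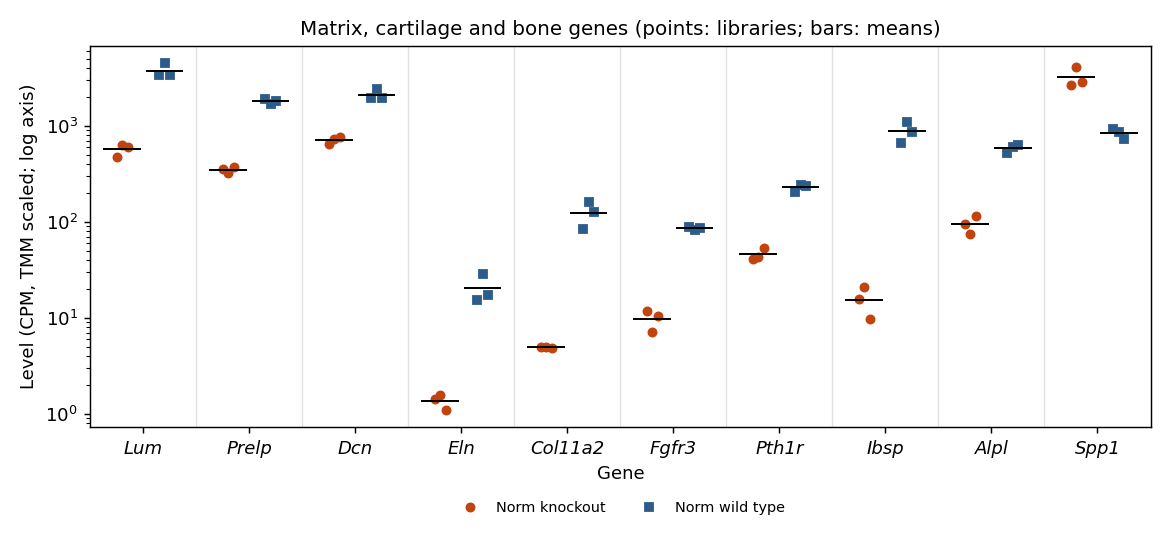
Level in CPM (log axis) of 10 genes of the matrix, cartilage and bone in each Norm library, knockout (circles, left) and wild type (squares, right), with a bar at each group mean, 3 libraries a group. Lum, Prelp, Dcn, Eln, Col11a2, Fgfr3, Pth1r, Ibsp and Alpl are lower in every knockout library than in any wild-type library, while Spp1 is higher.

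The skeletal programmes fell with the matrix. Of 33 cartilage genes, 16 were lower and 4 higher (median −1.08). In Opti 12 of these were higher and 8 lower in the knockout, with 15 interactions negative and 2 positive. Fgfr3, the receptor that restrains chondrocyte growth, was 11.8, 7.20 and 10.4 CPM in the knockout, against 87.4, 82.999 and 87.1 CPM in the wild type (−3.13 ± 0.18 (adjusted p = 1.17e-07)). Pth1r, the receptor of parathyroid hormone-related protein, was 41.2, 43.4 and 53.2 CPM in the knockout, against 204, 243 and 235 CPM in the wild type (−2.31 ± 0.14 (adjusted p = 1.25e-07)), and Col11a2, a collagen XI chain, 5.02, 4.93 and 4.84 CPM in the knockout, against 83.95, 160.5 and 127 CPM in the wild type (−4.65 ± 0.29 (adjusted p = 1.98e-07)). Acan, aggrecan, was 20.8, 8.93 and 13.7 CPM in the knockout, against 62.9, 69.2 and 62.7 CPM in the wild type (−2.16 ± 0.29 (adjusted p = 8.85e-05)), and Has2, which makes hyaluronan, averaged 28.7 CPM in the knockout and 109.8 CPM in the wild type (−1.94 ± 0.14). The defining chondrocyte genes did not all move: Col2a1 was 80.01, 73.9 and 102 CPM in the knockout, against 79.4, 81.6 and 70.7 CPM in the wild type (0.14 ± 0.14 (adjusted p = 0.458)), Comp averaged 71.05 CPM in the knockout and 80.3 CPM in the wild type (−0.18 ± 0.12 (adjusted p = 0.262)), and Sox9, the master factor of cartilage, rose slightly (0.42 ± 0.12 (adjusted p = 0.0163)), a call lost when the 6 libraries were fitted alone (0.40), without knockout replicate 2 (0.39) and without wild-type replicate 2 (0.30). Prg4, which encodes the joint lubricant lubricin, rose, with 15.5 CPM in the knockout and 3.71 CPM in the wild type (2.06 ± 0.18). Acan is a gene whose change reversed with the medium: it was 18.3, 25.7 and 27.7 CPM in the Opti knockout and 2.41, 1.48 and 1.19 CPM in the Opti wild type (interaction −5.98 ± 0.43 (adjusted p = 8.98e-07)).

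Bone genes were lower in 13 of 21 and higher in 6 (median −0.80). Ibsp, bone sialoprotein, was 15.6, 20.7 and 9.80 CPM in the knockout, against 665, 1085 and 867 CPM in the wild type, among the largest losses of all (−5.83 ± 0.51 (adjusted p = 3.03e-06)). Alpl, alkaline phosphatase, was 95.6, 75.5 and 115 CPM in the knockout, against 525, 604 and 636 CPM in the wild type (−2.62 ± 0.20 (adjusted p = 9.95e-07)). Sp7, the osteoblast factor osterix, averaged 26.7 CPM in the knockout and 137 CPM in the wild type (−2.36 ± 0.14), and Runx2, which acts upstream of it, 97.1 CPM in the knockout and 148 CPM in the wild type (−0.61 ± 0.11). Phospho1, a phosphatase of matrix vesicles, fell by 2.98 on the log2 scale. Spp1, osteopontin, went the other way, at 2662, 4046 and 2871 CPM in the knockout, against 926, 858 and 733 CPM in the wild type (1.93 ± 0.15 (adjusted p = 1.20e-06)). Tendon and fibrous tissue genes fell in 11 of 17 and rose in 3: Igfbp5 averaged 197 CPM in the knockout and 675 CPM in the wild type (−1.78 ± 0.18) and the tendon factor Mkx 9.82 CPM in the knockout and 20.5 CPM in the wild type (−1.06 ± 0.15), while Scx, scleraxis, averaged 71.3 CPM in the knockout and 56.3 CPM in the wild type (0.34 ± 0.18 (adjusted p = 0.173)).

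Genes that cut or protect the matrix fell in 28 of 48 members and rose in 7 (median −0.80). Adamts9, a versican-cleaving protease, averaged 4.35 CPM in the knockout and 30.4 CPM in the wild type (−2.81 ± 0.18), and Mmp13, the collagenase of cartilage, 120.4 CPM in the knockout and 253 CPM in the wild type (−1.07 ± 0.27 (adjusted p = 0.00807)). The serpin Serpine2, an inhibitor of plasminogen activation, fell by 1.51 on the log2 scale, beside its target Plat. Reck, an inhibitor of metalloproteinases, fell by 1.33. Mmp11, stromelysin 3, and Ctsl, cathepsin L, were higher, at 43.2 CPM in the knockout and 13.5 CPM in the wild type (1.68 ± 0.10) and 668 CPM in the knockout and 302 CPM in the wild type (1.14 ± 0.12).

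Integrins and focal adhesion genes moved both ways, with 9 of 44 higher (5 without wild-type replicate 3) and 12 lower. Itga7, a laminin-binding alpha chain, was 39.7, 42.7 and 33.9 CPM in the knockout, against 6.75, 8.10 and 6.15 CPM in the wild type (2.47 ± 0.14 (adjusted p = 9.32e-08)). Zyx, zyxin, averaged 570.2 CPM in the knockout and 262 CPM in the wild type (1.12 ± 0.10), whereas Itga8, Itga4 and Itga1 fell by 1.72, 1.60 and 1.20 on the log2 scale. The syndecans Sdc1, Sdc3 and Sdc4, heparan sulfate proteoglycans of the membrane, fell by 0.76, 1.15 and 0.81. Of 21 cadherins and connexins 11 fell and 3 rose: Cdh11, the cadherin of mesenchyme, averaged 753 CPM in the knockout and 1409 CPM in the wild type (−0.90 ± 0.13), and Gja1, connexin 43, 627 CPM in the knockout and 1245 CPM in the wild type (−0.99 ± 0.12).

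Since the study is about motility, 75 genes for small GTPases, actin nucleation and guidance were set apart, and 18 were higher and 25 lower (median −0.16). Guidance cues were among them. Sema3c was 521, 382 and 391 CPM in the knockout, against 128, 151 and 99.2 CPM in the wild type (1.78 ± 0.17 (adjusted p = 5.12e-06)), while its relative Sema3d averaged 3.62 CPM in the knockout and 35.3 CPM in the wild type (−3.29 ± 0.31). The ephrin Efnb1 was 43.8, 40.02 and 44.8 CPM in the knockout, against 113, 119 and 126 CPM in the wild type (−1.47 ± 0.11 (adjusted p = 8.58e-07)), and Robo2, a Slit receptor, averaged 7.14 CPM in the knockout and 34.6 CPM in the wild type (−2.28 ± 0.19). Of the cytoskeletal parts, Wasf1 and Wasl, which activate Arp2/3, rose by 1.55 and 0.73 on the log2 scale, Rhoa rose by 0.53, and Rnd3, an atypical small GTPase, fell by 0.87. The shares, 24.0% higher and 33.3% lower, stand beside 18.9% and 17.2% among all genes.

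Secreted signals and their receptors were more often lower. Of 50 PDGF, FGF, IGF and VEGF genes 25 fell and 12 rose: Fgfr2 averaged 152 CPM in the knockout and 418 CPM in the wild type (−1.46 ± 0.12), and Vegfb rose, with 32.05 CPM in the knockout and 9.69 CPM in the wild type (1.73 ± 0.15). Of 49 TGF-beta and BMP genes 22 fell and 8 rose. In Opti 25 of these were higher and 9 lower in the knockout, and all 26 interactions called were negative. Gdf10, a BMP family member of cartilage, was 6.12, 6.84 and 8.43 CPM in the knockout, against 116, 139 and 127 CPM in the wild type (−4.16 ± 0.16 (adjusted p = 5.81e-09)), and Gdf6, of joint formation, averaged 8.07 CPM in the knockout and 49.7 CPM in the wild type (−2.62 ± 0.17). Grem1, a BMP antagonist, rose, with 269.6 CPM in the knockout and 59.1 CPM in the wild type (2.19 ± 0.17), and the BMP target Id1 fell, with 5.40 CPM in the knockout and 20.4 CPM in the wild type (−1.92 ± 0.15). Of 47 Wnt genes 20 fell and 7 rose. Frzb, a secreted frizzled-related inhibitor of Wnt, was 0.852, 0.916 and 0.370 CPM in the knockout, against 20.8, 32.7 and 25.7 CPM in the wild type (−5.21 ± 0.36 (adjusted p = 4.13e-07)). Apcdd1 and Nkd2, feedback inhibitors, fell by 3.34 and 2.64 on the log2 scale, and Sfrp2 by 2.23. Lgr6, an R-spondin receptor, and Rspo2 rose by 2.19 and 1.76. Hedgehog genes fell in 6 of 14, among them the receptor and target Ptch1 (−1.53 ± 0.19), and Notch genes in 8 of 18 (5 without knockout replicate 2 or 3 or wild-type replicate 2), among them Notch1 (−1.50 ± 0.23), with Jag1 higher (1.11 ± 0.20).

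Genes of cell division fell. Of 36 DNA replication genes 29 fell and 0 rose (median −0.79), and of 34 mitotic genes 24 fell and 0 rose (median −0.76). Mitotic genes lower were 12 without wild-type replicate 1, 14 without knockout replicate 3 and 13 to 14 with limma on FPKM. Mki67, the proliferation antigen, was 20.8, 13.3 and 15.001 CPM in the knockout, against 43.97, 29.1 and 32.7 CPM in the wild type (−1.11 ± 0.21 (adjusted p = 0.00118)), with no overlap. Mcm4 of the replicative helicase averaged 24.5 CPM in the knockout and 52.1 CPM in the wild type (−1.09 ± 0.15), Cdc45 4.15 CPM in the knockout and 10.7 CPM in the wild type (−1.37 ± 0.16) and Top2a 23.9 CPM in the knockout and 54.9 CPM in the wild type (−1.20 ± 0.24). Among the G1 regulators the growth factor-responsive cyclins Ccnd1 and Ccnd2 fell by 1.06 and 0.93 on the log2 scale, and Ccnd1 was 490.5, 499 and 515 CPM in the knockout, against 1043, 1053 and 1037 CPM in the wild type. Cdkn1b, the inhibitor p27, rose, with 36.4 CPM in the knockout and 20.01 CPM in the wild type (0.86 ± 0.13). In Opti, 32 of the 34 mitotic genes were higher in the knockout and 0 lower, and 11 of the 36 replication genes were higher and 3 lower. Mki67 was 8.49, 11.8 and 11.4 CPM in the Opti knockout and 2.98, 3.73 and 4.17 CPM in the Opti wild type, so that both knockout groups lay between the wild-type groups of Norm and Opti.

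Immediate early genes, which serum induces within the hour through ERK and SRF, fell in 16 of 32 and rose in 6. Egr3 was 10.6, 17.1 and 17.8 CPM in the knockout, against 84.96, 103 and 88.1 CPM in the wild type (−2.60 ± 0.22 (adjusted p = 2.41e-06)), and Egr1, Egr2 and Nr4a1 fell by 1.01, 2.16 and 1.64 on the log2 scale. Spry4 and Dusp6, which damp ERK signalling, fell by 1.81 and 1.29. Atf3, a target of both serum and ATF4, rose, at 18.6, 21.4 and 24.2 CPM in the knockout, against 4.76, 5.02 and 4.21 CPM in the wild type (2.20 ± 0.12 (adjusted p = 9.80e-08)), as did Klf4 (1.20 ± 0.14). Of 30 actin genes and SRF targets 13 fell and 2 rose. Srf was 39.98, 39.6 and 43.3 CPM in the knockout, against 81.9, 77.3 and 82.4 CPM in the wild type (−0.97 ± 0.08 (adjusted p = 2.11e-06)), Mylk, myosin light chain kinase, averaged 19.6 CPM in the knockout and 72.4 CPM in the wild type (−1.89 ± 0.12), and Cnn1, calponin, 4.18 CPM in the knockout and 23.5 CPM in the wild type (−2.49 ± 0.27). Acta2, smooth muscle actin, was 1823, 1833 and 1801 CPM in the knockout, against 1956, 1557 and 1853 CPM in the wild type (0.02 ± 0.11 (adjusted p = 0.89)), which did not pass the test. Myh11, a marker of mural cells rather than of cartilage, averaged 0.578 CPM in the knockout and 8.87 CPM in the wild type, and 5 of 9 mural markers were lower.

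The CArG box, to which SRF binds, occurred in 7 of 26 actin and SRF list members with a window, in 24.2% of 33 promoters against 1.63% of all. Among immediate early genes it occurred in 2 of 23 (8.7%), Dusp5 and Egr2. Their share of promoters, 17.9% of 28, counts several windows of Egr2, some of which overlap and hold the same site. The sterol response element, written TCAC, any base and CCAC on either strand, occurred in 1 of 18 cholesterol genes, in 4.76% of 21 promoters against 1.24% of all. Of CArG boxes, Srf at chr17:46556185-46556274 (minus strand) holds 2, and Vcl, vinculin, at chr14:20929148-20929210 (plus) 1.
Srf: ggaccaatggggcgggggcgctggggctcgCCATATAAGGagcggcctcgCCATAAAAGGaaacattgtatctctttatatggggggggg
Vcl: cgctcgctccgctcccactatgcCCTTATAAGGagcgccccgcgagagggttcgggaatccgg
Vcl was 312, 156 and 185 CPM in the knockout, against 526, 499.7 and 404 CPM in the wild type (−1.13 ± 0.23 (adjusted p = 0.00218)). In the Opti libraries it was 246, 322 and 327 CPM in the Opti knockout and 77.6, 65.6 and 53.3 CPM in the Opti wild type, and 26 of the 30 genes were higher there in the knockout with 0 lower.

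Cholesterol genes fell in 10 of 26 and rose in 1 (median −0.26). The pathway is driven by SREBP2 and damped by sterol taken up from serum. Hmgcs1 was 186, 189 and 169.7 CPM in the knockout, against 331, 348 and 288 CPM in the wild type (−0.83 ± 0.12 (adjusted p = 1.42e-04)), and Idi1 averaged 43.1 CPM in the knockout and 74.5 CPM in the wild type (−0.79 ± 0.18). The call of Idi1 was lost with limma on FPKM. In Opti, 24 of the 26 were higher in the knockout, with Hmgcs1 275, 375 and 305 CPM in the Opti knockout and 80.3, 86.96 and 82.04 CPM in the Opti wild type. With the treatment entry as the medium, 9 were higher and 1 lower than in the Norm wild type, so the direction of this list turns on the label.

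**Figure D5:**
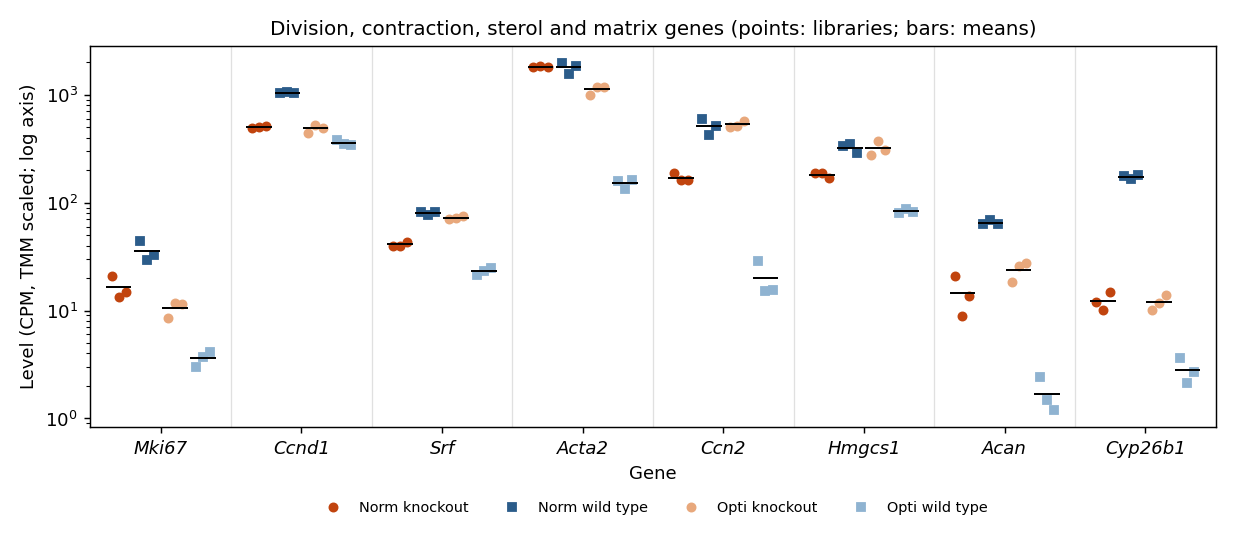
Level in CPM (log axis) of 8 genes of division, contraction, sterol synthesis and matrix in each library of the 4 groups, in the order Norm knockout, Norm wild type, Opti knockout and Opti wild type, with a bar at each mean, 3 libraries a group. Mki67, Srf, Ccn2, Acan and Hmgcs1 are lower in the Norm knockout than in the Norm wild type and higher in the Opti knockout than in the Opti wild type, and Acta2 overlaps between the Norm groups.

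Targets of YAP and TAZ did not move as a block, with 8 of 19 higher (5 without wild-type replicate 3) and 5 lower. Ccn2, connective tissue growth factor, was 186, 163 and 162 CPM in the knockout, against 595, 425 and 512 CPM in the wild type (−1.58 ± 0.21 (adjusted p = 1.09e-04)), and Ccn1 fell by 1.30 on the log2 scale, while Ajuba and Axl rose by 0.84 and 0.78. Ccn2 had the largest interaction of any gene under the naming rule, −6.31 ± 0.32 (adjusted p = 1.05e-07), with 502, 514 and 576 CPM in the Opti knockout and 29.1, 15.1 and 15.6 CPM in the Opti wild type.

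Transcription factors that pattern the jaw and its mesenchyme rose in 21 of 43 members and fell in 7 (4 without knockout replicate 2; median 0.50). Lhx8, of the oral jaw mesenchyme, was 19.1, 18.2 and 18.5 CPM in the knockout, against 4.99, 5.33 and 4.77 CPM in the wild type (1.88 ± 0.11 (adjusted p = 9.68e-08)). Pitx1, which marks the lower jaw, averaged 184 CPM in the knockout and 84.7 CPM in the wild type (1.12 ± 0.13), Foxc1 41.99 CPM in the knockout and 17.7 CPM in the wild type (1.25 ± 0.16) and Tbx18 11.1 CPM in the knockout and 3.92 CPM in the wild type (1.51 ± 0.19). Dlx3, tied to bone formation, fell by 3.46 on the log2 scale. Retinoic acid genes changed in both directions. Cyp26b1, which degrades retinoic acid, was 12.1, 10.1 and 14.8 CPM in the knockout, against 177, 165 and 181 CPM in the wild type (−3.82 ± 0.19 (adjusted p = 4.32e-08)), and Crabp2, which carries it to its receptor, 51.1, 71.8 and 54.2 CPM in the knockout, against 5.21, 9.99 and 5.85 CPM in the wild type (3.07 ± 0.22 (adjusted p = 5.94e-07)). Both left no overlap. Cyp26b1 was 10.1, 11.7 and 13.9 CPM in the Opti knockout and 3.61, 2.13 and 2.72 CPM in the Opti wild type, so that the Norm wild type alone was high.

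Complement genes of mesenchyme fell in 12 of 15 and rose in 1 (median −1.04). Serping1, the C1 inhibitor, averaged 13.5 CPM in the knockout and 53.8 CPM in the wild type (−1.998 ± 0.14) and C1s1 69.2 CPM in the knockout and 149.7 CPM in the wild type (−1.11 ± 0.10). Of 34 chemokine and inflammatory genes 11 fell and 5 rose (3 without knockout replicate 1 or wild-type replicate 3), with Icam1 at 3.84 CPM in the knockout and 16.7 CPM in the wild type (−2.12 ± 0.21). Il1rl1, the receptor for IL-33, was 249, 289 and 223 CPM in the knockout, against 58.6, 63.6 and 46.7 CPM in the wild type (2.17 ± 0.14 (adjusted p = 1.81e-07)).

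In the remaining lists the changes were mixed or small. Genes of glycolysis and hypoxia rose in 9 of 28 and fell in 9, led by Txnip, an inhibitor of glucose uptake (1.45 ± 0.16, but −1.81 with the medium from the treatment entry). Chaperones of the endoplasmic reticulum rose in 5 of 25 and fell in 10, but 5 fell without wild-type replicate 2 and 6 without any 1 knockout library, and 7 rose and 5 fell with library size as the only scaling (7 and 4 with limma on FPKM), so the lean turns with the scaling: Hspa5, the chaperone BiP, averaged 1509 CPM in the knockout and 798 CPM in the wild type (0.92 ± 0.13), while Calr, calreticulin, fell by 0.63 on the log2 scale. Of the p53 targets 6 of 21 rose and 5 fell. Fatty acid synthesis genes rose in 2 of 17 and fell in 4, among them Fads2, a desaturase (−0.67 ± 0.10). None of the 13 protein-coding genes of the mitochondrial genome passed (median 0.36), but 12 were higher with the medium from the treatment entry and 13 in Opti (median 1.29), and the nuclear oxidative phosphorylation genes rose in 5 of 32 and fell in 2 (3 rose without knockout replicate 2 or 3, and 5 fell without wild-type replicate 2). Ribosome biogenesis genes rose in 13 of 25 and fell in 0, by small amounts (median 0.38), with Ncl, nucleolin, at 576 CPM in the knockout and 420.4 CPM in the wild type (0.45 ± 0.10).

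Among genes averaging at least 5 CPM with no overlap between groups, the largest increases were those of Car6, Trib3, Lama1, Adm2, Gadd45a, Mei4, Pde1c, Nos1, Prr32 and Trim66. Car6, a secreted carbonic anhydrase, was 36.6, 43.2 and 49.4 CPM in the knockout, against 0.505, 1.80 and 0.108 CPM in the wild type (5.68 ± 0.51 (adjusted p = 4.05e-06)). Adm2, a peptide of the calcitonin family, was 24.6, 27.6 and 27.3 CPM in the knockout, against 0.774, 1.96 and 1.42 CPM in the wild type (4.26 ± 0.25 (adjusted p = 1.21e-07)), and Gadd45a, a growth arrest gene, 144, 146 and 138 CPM in the knockout, against 7.65, 13.5 and 7.27 CPM in the wild type (3.91 ± 0.20 (adjusted p = 4.33e-08)). Pde1c and Nos1, both regulated by calmodulin, rose by 3.84 and 3.74 on the log2 scale, and Nos1, neuronal nitric oxide synthase, was 68.7, 38.3 and 42.03 CPM in the knockout, against 2.12, 4.47 and 4.59 CPM in the wild type. Mei4, Prr32 and Trim66 rose by 3.89, 3.74 and 3.73. Car6, Adm2 and Gadd45a were above the Norm wild-type range in every Opti library of both genotypes, and Car6 and Adm2 stayed below the Norm knockout there: Adm2 was 13.8, 15.7 and 16.6 CPM in the Opti knockout and 13.97, 16.3 and 16.3 CPM in the Opti wild type.

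The largest decreases were those of Slc8a3, Ibsp, Ace, Frzb, Col11a2, Panx3, Gdf10, Bmp3, Entpd3 and Draxin. Slc8a3, a sodium-calcium exchanger, was 0.882, 1.19 and 0.740 CPM in the knockout, against 43.2, 68.1 and 58.7 CPM in the wild type (−5.91 ± 0.37 (adjusted p = 1.72e-07)). Panx3, the pannexin of cartilage and bone, was 10.5, 9.46 and 10.02 CPM in the knockout, against 139.7, 229.8 and 174 CPM in the wild type (−4.18 ± 0.23 (adjusted p = 9.32e-08)), and Entpd3, an ecto-ATPase that splits extracellular ATP, 0.733, 0.809 and 1.002 CPM in the knockout, against 11.2, 14.2 and 14.8 CPM in the wild type (−3.98 ± 0.28 (adjusted p = 4.65e-07)). Draxin, a guidance protein that also opposes Wnt, was 3.32, 2.26 and 3.38 CPM in the knockout, against 56.3, 40.2 and 42.6 CPM in the wild type (−3.96 ± 0.26 (adjusted p = 2.81e-07)), and Bmp3 averaged 0.980 CPM in the knockout and 16.3 CPM in the wild type (−4.05 ± 0.40). Ace, which endothelium makes, was 0, 0.351 and 0.401 CPM in the knockout, against 0.458, 27.9 and 2.67 CPM in the wild type (−5.36 ± 1.39 (adjusted p = 0.00955)), and its difference rests on wild-type replicate 2, the library with the most endothelial RNA. For the others all 3 wild-type libraries were high.

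Across the genome 6007 genes (31.4%) passed the test of whether the knockout difference in Norm equals that in Opti, with 3257 interactions positive and 2750 negative. The Opti comparison itself called 2539 genes higher (13.3%) and 2856 lower (14.9%). More members were higher than lower in the Opti knockout among immediate early genes (12 and 3), cadherins and connexins (6 and 1) and chemokine genes (10 and 6). The oxidative and metal stress list had 3 higher and 12 lower there. The 5 largest interactions were those of Ccn2, Atp6v0d2, Acan, Cyp26b1 and Car6. Atp6v0d2, a proton pump subunit of osteoclasts and macrophages, was 8.16, 10.2 and 7.40 CPM in the knockout, against 1.17, 2.60 and 1.16 CPM in the wild type (2.37 ± 0.27 (adjusted p = 2.84e-05)), with 2.59, 2.77 and 2.98 CPM in the Opti knockout and 32.2, 42.8 and 42.01 CPM in the Opti wild type (interaction 6.18 ± 0.39 (adjusted p = 2.94e-07)). Because the knockout libraries of both titles carry the label conflict, the contrast itself would change meaning if the treatment entries were right. It would then be serum-free minus serum medium over both genotypes, and no test of an interaction. The interaction fitted with the media from the treatment entries called 6635 genes.

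Where a list above had 0 members in a direction, the count at an unadjusted p below 0.05 was also 0, except for 1 replication gene and 2 collagen genes higher, and DESeq2 called 0 too except 1 collagen gene higher. The 13 mitochondrial genes had none at that level in either direction.

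Markers of other cell types give the limits of the culture. All 14 genes of the fibrochondrocyte identity list were present, and 2 were higher and 7 lower. Their summed level was 68973 to 89607 CPM in the knockout, against 135039 to 148934 CPM in the wild type. Most of that sum is Col1a1, Col1a2 and Col3a1, so it says little about the cartilage genes of the list, such as Acan and Col2a1. Bone genes such as Ibsp and Alpl, given above, were also present in the wild type. Summed levels of 19 macrophage and myeloid genes overlapped, at 655 to 712 CPM in the knockout and 649.7 to 797 CPM in the wild type. Of these genes 1 was higher and 2 lower (18 lower with the medium from the treatment entry and 17 in Opti), and Lyz2, lysozyme, was 426, 468 and 420.2 CPM in the knockout, against 443, 392 and 349 CPM in the wild type. Mural markers summed to 13.7 to 20.8 CPM in the knockout, against 59.7 to 61.6 CPM in the wild type, with 5 of 9 lower and 0 higher. Of 11 endothelial markers 9 were lower, but only 1 was once wild-type replicate 2 was left out, and 3 to 5 without single knockout libraries, and Pecam1 was 0.464, 0.260 and 0.123 CPM in the knockout, against 0.300, 11.9 and 1.12 CPM in the wild type. Krt14, a keratin, was 0.583, 0.198 and 0 CPM in the knockout, against 3.10, 93.5 and 0 CPM in the wild type, and Hbb-bs, a red cell globin, 0.314, 1.88 and 0.802 CPM in the knockout, against 1.28, 28.2 and 7.27 CPM in the wild type, both highest in that library. Of 14 glial and neuronal genes, which summed to 334 to 379 CPM in the knockout and 214 to 533 CPM in the wild type, 8 were lower and 1 higher. Only 3 were lower without wild-type replicate 3, the library at 533 CPM, 4 without any 1 knockout library, 2 in the 6 libraries alone and 2 to 3 with limma on FPKM. Skeletal muscle markers were near 0, at 3.56 to 6.47 CPM in the knockout and 4.52 to 10.2 CPM in the wild type. Adipocyte genes were higher in 4 of 5, among them Plin4, a lipid droplet protein (2.23 ± 0.25). This count was 2 to 4 with single libraries left out and 2 in the 6 libraries alone. It was 1 with the medium from the treatment entry and 0 with the Y-linked covariate. In Opti 0 of these genes were higher and 3 lower in the knockout. In bulk RNA fewer cells of a type and less RNA per cell cannot be told apart, and the part of these markers in the other results was not tested.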

How the data were processed

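Poly(A) RNA was sequenced as 12 stranded TruSeq libraries in paired ends on an Illumina NovaSeq instrument. The authors mapped reads with HISAT2, assembled and merged transcripts with StringTie and gffcompare, and estimated expression with StringTie and edgeR. No genome build or version is given in the sources used here, but 99.71% of the gene identifiers are in GENCODE M21 and 99.87% of these overlap its GRCm38 positions. The deposited table holds raw read counts per gene, which were tested, and FPKM values made by the authors, which served as an alternative on the log2 scale with a pseudocount of 1 or 0.1. It also names 0 columns that could not be mapped to a library. Within the Norm knockout and the Norm wild type no pair of libraries agreed within sampling noise (chi-square per degree of freedom 41.55 to 238.6). Opti pairs were not compared.

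Genes passing filterByExpr (19118 of 31075) were fitted in all 12 libraries with 1 mean per group, TMM scaling and the quasi-likelihood test of edgeR 4.0.16 (R 4.3.3), sharing 1 estimate of spread (biological coefficient of variation 25.4%). Contrasts were Norm knockout minus Norm wild type, and that difference minus its Opti counterpart. P-values were adjusted by Benjamini-Hochberg over all genes tested. Groups were taken from titles. Alternatives, whose effect is given in the closing section, were RLE scaling, library size alone, DESeq2 1.42.0, no filter, limma 3.58.1 on FPKM, a replicate block, the medium from the treatment entry, the Y-linked covariate, the 6 libraries alone and leaving out each library. Intervals between libraries cover counting and culture error without telling them apart.

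The members and the 52 gene lists were chosen with earlier results of these data known. The naming rule took Cspg4, from each list the 3 genes of lowest adjusted p, the 10 largest increases and decreases and the 5 largest interactions (called, at least 5 CPM on average, no overlap, named genes), markers, and genes within 1 Mb of Cspg4, and not all were printed. Some genes of the lists are not reported here. The other list members named, such as Chac1, Ddit3, Atf4, Bgn, Col2a1, Acta2 and Tfeb, were chosen after their values were seen. Promoter windows, 250 bases before to 50 after the start, are from RefSeq (GRCm38.p6).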

Additional observations from a re-analysis of the deposited data

Results flagged for a closer look

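A difference between the media in the size or sign of the knockout effect was tested for every gene, and 6007 passed. Among the genes named in the text, 53 were called in both media with opposite signs and also passed that test, so each stands here with its interaction, the knockout difference in Norm minus that in Opti on the log2 scale. These values hold by title. If the treatment entries are right, they are differences between the media over both genotypes and not interactions. The label conflict was not resolved.

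Negative interactions, of genes lower in the Norm knockout and higher in the Opti knockout, came from several groups. In growth and contraction they were −6.31 for Ccn2, −4.41 for Ccn1, −4.12 for Cnn1, −3.32 for Vcl, −2.61 for Srf and −2.46 for Mylk. In the cell cycle they were −2.85 for Top2a, −2.65 for Mki67, −1.99 for Cdc45 and −1.51 for Ccnd1. In lipid synthesis they were −3.72 for Idi1, −2.77 for Hmgcs1 and −1.87 for Fads2. In the matrix and its proteases they were −5.98 for Acan, −3.99 for Has2, −3.34 for Adamts9, −2.46 for Thbs1 and −1.92 for Emilin1. Signalling and adhesion gave −5.90 for Cyp26b1, −5.22 for Draxin, −5.09 for Panx3, −3.65 for Id1, −2.78 for Sp7, −2.15 for Itga1, −1.89 for Gja1, −1.85 for Sdc4 and −1.60 for Rnd3.

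Positive interactions, of genes higher in the Norm knockout and lower in the Opti knockout, included genes of the lysosomal, oxidative and interferon groups. They were 6.18 for Atp6v0d2, 2.92 for Gpnmb, 2.90 for Sqstm1, 2.50 for Fnip2, 1.97 for Atp6v1b2 and 0.92 for Ctsa. They were 3.78 for Hmox1, 1.64 for Ftl1 and 1.54 for Gclm, and 4.12 for Ifit1, 3.62 for Isg15, 2.43 for Xaf1 and 1.55 for Irf9. Stress genes gave 3.87 for Chac1, 3.82 for Ddit3, 2.64 for Atf3, 1.90 for Nupr1 and 1.57 for Hspa5. The rest were 4.84 for Txnip, 3.44 for Lgals3, 2.56 for Vegfb, 2.35 for Spp1, 1.96 for Mmp11, 1.06 for Wasl, 0.87 for Ide and 1.23 for Snx33. Single outlying libraries were not tested for in groups of 3, and values without each library are given with the processing.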

How the results depend on the processing

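Every library held at least 51546504 counted reads, but genes below 1 CPM in a group, such as Frzb, Krt14 and Pecam1, rest on fewer reads, and 3 libraries a group cannot give an exact p below 0.1. The count of 6896 called genes was 5264 to 6572 when single libraries were left out, 5350 with the 6 libraries fitted alone, 7516 with DESeq2, 5940 without the filter on low counts, 6771 with RLE scaling and 7293 with library size as the only scaling. The interaction count kept within 1.5 times of 6007 in every setting that gave one but the Y-linked covariate, and the 6 libraries alone give none. With that covariate 919 genes were called (414 higher, 505 lower), 847 of them at 2-fold (368 higher, 479 lower), and 3466 interactions, and 80 of the named genes lost their call. With limma on log2(FPKM + 1), 1985 genes were lower and 765 passed at 2-fold (473 higher, 292 lower). With log2(FPKM + 0.1), which moved the median over all genes to 0.12, 68.6% of calls were higher, 2108 genes were lower and 1021 lower at 2-fold. On FPKM with a pseudocount of 0.1, members lower also dropped to 19 replication, 16 motility, 8 actin and SRF, 5 cholesterol and 5 MHC genes. With the medium from the treatment entry, 7944 genes were called and 1265 were higher at 2-fold, and of the 4882 genes also called by title 4805 had the same sign. Both comparisons use the same Norm wild-type libraries, so this agreement is partly built in and cannot tell which label is right. Of the 2629 genes called in both Norm and Opti, each against its own wild type, 1467 had the same sign. Cspg4 was between −4.13 and −3.80 when single libraries were left out. Correlations of same-numbered deviations were 0.126, −0.0105 and 0.151, against −0.166 to 0.0346 for unlike numbers. Replicates 1 and 3 correlated best with their own number and replicate 2 did not. These values do not settle whether the replicate numbers pair the libraries. A replicate block gave 6478 calls, and of the named genes only Krt14 lost its call under it.

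Signs of 15 named genes turned in at least 1 setting, and 9 of the 15 had been called. With the medium from the treatment entry the log2 difference was −0.67 for Acta2, −0.086 for Axl, 0.056 for Ccn2, −0.78 for Col2a1, 0.0065 for Gpx3, 0.44 for Idi1, −0.48 for Isg15, −1.28 for Lyz2, −0.22 for Rspo2, −1.81 for Txnip and 0.86 for Xist. With RLE scaling it was −0.019 for Acta2, −0.030 for Bgn and −0.029 for Tfeb, and the same with DESeq2. In the 6 libraries alone it was −0.0054 for Bgn and −0.0038 for Tfeb. With the Y-linked covariate it was 0.23 for Pdgfa and −0.76 for Scx. With single libraries left out, Acta2 lay between −0.064 and 0.096, Bgn between −0.011 and 0.039, Col2a1 between −0.0014 and 0.24, and Tfeb between −0.024 and 0.053. Without wild-type replicate 2 the calls of Ace, Pecam1, Krt14 and Sox9 were lost, at −2.62, −1.32, −2.57 and 0.30. Without knockout replicate 2 those of Pecam1 and Sox9 were lost, and without knockout replicate 3 those of Pecam1 and Krt14. Sox9 also lost its call in the 6 libraries alone. With the medium from the treatment entry 7 other named genes (Ctsa, Hmgcs1, Ifit1, Ncl, Rhoa, Srf and Xaf1) kept their sign and lost the call. Limma on log2(FPKM + 1) took the call, with the same sign, from 6 named genes: Ace, Col1a1, H2-K1, Idi1, Krt14 and Pecam1. Limma on log2(FPKM + 0.1) took it from 5, the same genes without Ace. The cause of these shifts was not tested.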

Other observations

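Genes beside the deletion and genes that differ between C57BL/6 substrains were read because a backcrossed allele brings flanking sequence with it. Of the 10 genes called within 1 Mb of Cspg4, Snx33, a sorting nexin of endocytosis, had the largest rise among those past 5 CPM, at 76.7, 68.9 and 71.2 CPM in the knockout, against 43.6, 38.9 and 43.7 CPM in the wild type (0.78 ± 0.09 (adjusted p = 2.82e-05)). Tspan3, a tetraspanin, was 148, 159.6 and 167 CPM in the knockout, against 256, 271 and 263 CPM in the wild type (−0.74 ± 0.09 (adjusted p = 3.21e-05)), and Lingo1, a partner of the Nogo receptor, 5.83, 6.72 and 6.72 CPM in the knockout, against 11.2, 12.2 and 18.4 CPM in the wild type (−1.11 ± 0.18 (adjusted p = 3.66e-04)). Snx33 had the opposite difference in Opti, with an interaction of 1.23 ± 0.13 (adjusted p = 1.51e-05), while Tspan3 and Lingo1 were lower there too (−0.31 and −0.80). Among substrain genes Entpd4, a Golgi and lysosomal nucleotidase, was 31.03, 25.9 and 28.6 CPM in the knockout, against 83.4, 87.4 and 90.7 CPM in the wild type (−1.61 ± 0.10 (adjusted p = 1.77e-07)), and it shares sequence with a near copy, so its counts are uncertain. Ide, insulin-degrading enzyme, was 112, 103 and 97.9 CPM in the knockout, against 73.8, 75.8 and 62.8 CPM in the wild type (0.56 ± 0.11 (adjusted p = 0.00167)).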
